A study of Homo sapiens with 16 samples.

Results

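The receptors and ligands of the epidermal growth factor (EGF) family were followed in OVCAR3, an established human ovarian carcinoma cell line, over 72 h with 1,25-dihydroxyvitamin D3, written 1,25(OH)2D3, which is the active hormone made from vitamin D. The 9 members were the receptors EGFR, ERBB2, ERBB3 and ERBB4, the ligands AREG, EREG, HBEGF and TGFA, and the feedback inhibitor ERRFI1. All probe sets that the platform annotation assigned to exactly 1 of these symbols were taken, without regard to their values. The members themselves were chosen with earlier results of these data known, so their counts below are a description. 7 of the 9 members had such probe sets, 19 of 22283 on U133A arrays and 17 of 12626 on U95 arrays. AREG and ERRFI1 were not analysed here.

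EGF family ligands are made as membrane proteins and are released from the cell surface by metalloproteases. A bound ligand brings receptors together in pairs, the kinase of each partner phosphorylates the other, and adaptor proteins then start the RAS, MAP kinase and PI3 kinase cascades. ERBB2 has no known soluble ligand and ERBB3 has an impaired kinase, so both act through partners. EGFR and ERBB2 are known in ovarian carcinoma as receptors that can be overexpressed.

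The U133A arrays held 4 groups of 3 samples, labelled as biological replicates, and 3 independent experiments were stated for the study. No label ties a replicate number to an experiment. They were ethanol vehicle and 8, 24 and 72 h with 1,25(OH)2D3, whose labelled dose of 0.1 pM the arrays could not check. The hormone was added at staggered times before a common harvest, with the same ethanol exposure in all groups, so vehicle cells had no added 1,25(OH)2D3 and the same solvent. Vehicle is shared by all comparisons with it, and the U95 set held 1 array for each of the same conditions. OVCAR3 is a single line, grown here with serum and bovine insulin, which all groups shared.

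The start regions of EGFR and HBEGF are shown because these members had a probe set called on U133A, for HBEGF with the limit on testing given with its values. They are RefSeq windows (GRCh38.p14) from 250 bases before to 50 after an annotated transcription start, 5' to 3' on the gene's strand. 8 of the 9 members matched the table, with 10 windows, while ERBB3 did not. Capitals mark the searched motifs, on both strands, which were the GC box GGGCGG, the TATA element TATAAA, the nuclear receptor half-site AGGTCA and the AP-1 element TGANTCA. No match overlapped with one of another motif.

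The first EGFR window lies at chr7:55018767-55019066 on the plus strand and the second, at another annotated start, at chr7:55109589-55109888 on the same strand. The HBEGF window lies at chr5:140346554-140346853 on the minus strand.
EGFR start 1: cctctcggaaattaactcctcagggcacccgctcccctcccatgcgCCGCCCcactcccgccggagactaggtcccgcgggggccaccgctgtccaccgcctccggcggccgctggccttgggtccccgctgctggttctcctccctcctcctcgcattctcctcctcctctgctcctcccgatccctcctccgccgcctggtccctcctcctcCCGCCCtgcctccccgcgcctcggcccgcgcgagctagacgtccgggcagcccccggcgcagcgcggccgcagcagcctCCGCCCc
EGFR start 2: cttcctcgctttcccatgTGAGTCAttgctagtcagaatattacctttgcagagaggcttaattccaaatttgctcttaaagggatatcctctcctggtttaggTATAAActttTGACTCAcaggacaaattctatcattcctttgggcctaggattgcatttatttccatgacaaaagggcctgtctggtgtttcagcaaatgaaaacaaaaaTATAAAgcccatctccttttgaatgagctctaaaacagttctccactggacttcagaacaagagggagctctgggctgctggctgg
HBEGF: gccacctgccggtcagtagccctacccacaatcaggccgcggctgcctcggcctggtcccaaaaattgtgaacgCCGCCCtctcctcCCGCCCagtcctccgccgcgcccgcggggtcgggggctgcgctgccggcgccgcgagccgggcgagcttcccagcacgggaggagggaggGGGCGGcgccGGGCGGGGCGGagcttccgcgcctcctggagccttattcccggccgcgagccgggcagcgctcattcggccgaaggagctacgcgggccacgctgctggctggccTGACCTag

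Both the first EGFR window and the HBEGF window were rich in G and C, at 75.3% and 75.0%, against a median of 58.7% over all 35116 promoters of the table. The first EGFR window held 3 GC boxes and no TATAAA. The HBEGF window held 5 GC boxes, 2 of which overlap, and 1 half-site at position 43 after the start. The second EGFR window, with 42.0% G and C, held TATAAA at -146 and -36 and AP-1 elements at -232 and -136. Over all promoters the GC box was found in 45%, TATAAA in 11.5%, the half-site in 13.8% and the AP-1 element in 7.71%. The spaced pair of half-sites known as the vitamin D receptor DR3 consensus was found in 0.251% of all promoters and in 0 of the 10 windows of the members. A match describes letters in the window and is not evidence of binding.

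The cells carried markers of the labelled line and responded to the hormone. All 13 epithelial and ovarian carcinoma markers passed the filter on low values, against 3 of 9 fibroblast, 0 of 6 leukocyte and 0 of 6 endothelial markers. The summed epithelial signal spanned 50136 to 54110 at 72 h and 46822 to 53321 with vehicle. At an adjusted p under 0.05 in limma, 3 markers of that list, KRT7, CDH1 and WT1, rose and KRT18 fell at 72 h. Over all genes 3.86% rose and 2.98% fell at that time. At 24 h CDH1 and WT1 rose, and KRT18 and PAX8 fell (PAX8 by -0.37, limma adjusted p = 0.00573), where 2.45% of all genes rose and 1.62% fell. At 8 h WT1 alone passed, higher, as did 0.711% of all genes. The part of these markers in the results below was not tested. CYP24A1, the vitamin D catabolic enzyme, was higher at 8 h by 5.65 on the log2 scale (limma adjusted p = 1.60e-07), and correlations between arrays lay between 0.958 and 0.976.

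Among the receptors, EGFR alone passed the test, with lower messenger RNA at 24 and 72 h on probe set 201983_s_at. The other tested EGFR probe sets did not pass. The heparin-binding ligand HBEGF was called higher at 72 h on 1 of its 3 probe sets, which was tested only because its treated arrays were high. ERBB2, ERBB3, ERBB4 and TGFA did not pass the test at any time. In RNA from whole cultures, fewer cells with a transcript and less of it per cell cannot be told apart.

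Signals are on a linear scale of arbitrary units, changes are differences of log2(signal + 15.8), and a call is an adjusted p under 0.05 in limma over all genes or probe sets tested. For counts at an unadjusted p under 0.05, here and below, the share over all features was not counted. Nothing is therefore read from those counts. With the probe set of highest mean standing for each gene, 5 members were tested. At 8 h 0 of 5 were called, where 0.766% of the 7178 genes tested were, and 0 of 5 had an unadjusted p under 0.05. At 24 h 1 of 5 was called, lower, against 4.07% of all genes in either direction and 1.62% lower. At 72 h 1 of 5 was called, also lower, against 6.84% in either direction and 2.98% lower. The median change of the 5 was -0.12, -0.03 and -0.17 at the 3 times, against -0.00396, -0.02 and -0.01 over all genes. EREG and HBEGF lay under the filter by gene.

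By probe set, 11 of the 19 on U133A were tested, from 6 members. At 8 h 0 of 11 were called by limma, against 0.465% of 13329 probe sets, and 2 had an unadjusted p under 0.05. Those 2 were HBEGF 203821_at and 38037_at, whose vehicle signals lay under the filter on average. At 24 h 1 was called, lower, against 2.71% in either direction and 1.04% lower. At 72 h 2 were called, 1 higher and 1 lower, against 5.17% in either direction, 2.87% higher and 2.3% lower. The 2 called are EGFR 201983_s_at and HBEGF 203821_at, and the second of these passed the filter only through the treated groups. So did HBEGF 38037_at and ERBB3 215638_at, which were not called.

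**Figure D1:**
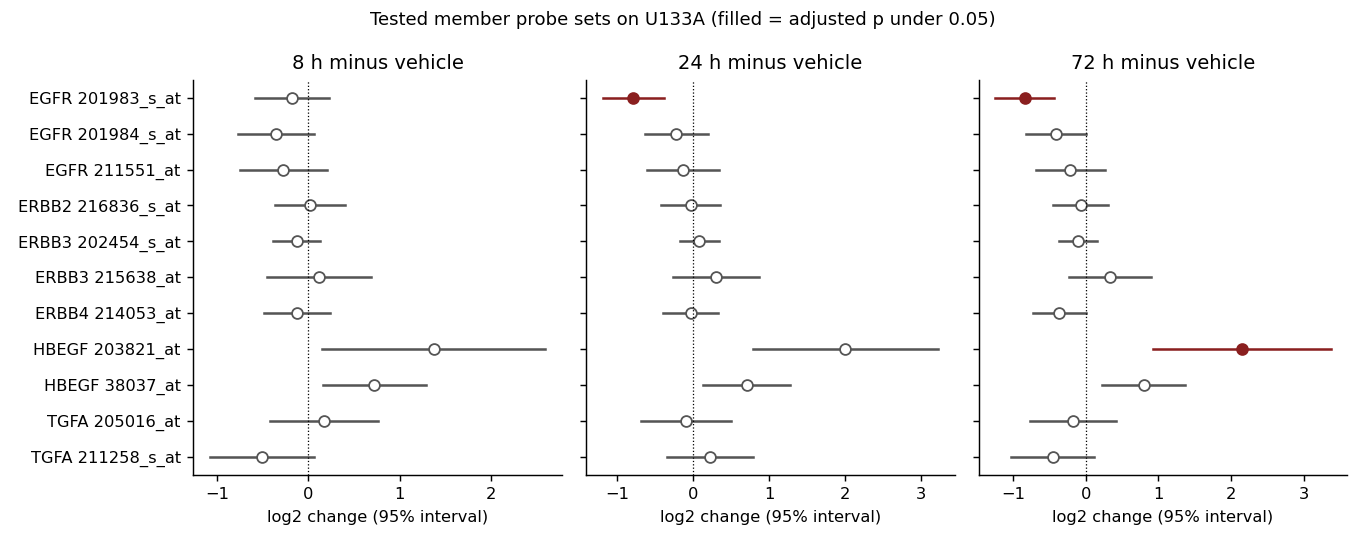
Log2 change from vehicle with its 95% interval (horizontal axis) for the 11 tested U133A probe sets of the family (rows) at 8, 24 and 72 h (panels), with filled red points for adjusted p under 0.05. EGFR 201983_s_at lies below 0 at 24 and 72 h, HBEGF 203821_at has the widest intervals, and the intervals of all ERBB2 and ERBB3 probe sets include 0.

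EGFR, the receptor of EGF, TGFA, AREG and HBEGF, is encoded on chromosome 7 and is represented by 6 U133A probe sets. Probe set 201983_s_at, which has the highest signal of them, stood for the gene. Its signals with vehicle were 1625, 1481.5 and 1285 in replicates 1 to 3. They were 1335, 1398 and 1147 at 8 h. They were 1018, 557 and 1031 at 24 h, and 790.1, 726 and 918 at 72 h. All 3 arrays at 24 h and all 3 at 72 h lay below the lowest vehicle array, while the 8 h arrays overlapped with vehicle.

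EGFR fell to 869 ± 270 at 24 h and to 811 ± 97.5 at 72 h, against 1464 ± 170 with vehicle (SD, n = 3 each). The log2 change was -0.79 at 24 h (SE 0.19, 95% interval -1.19 to -0.39, limma adjusted p = 0.0248). At 72 h it was -0.84 (SE 0.19, interval -1.24 to -0.44, limma adjusted p = 0.0115), which is 0.559 of the vehicle level on this scale. At 8 h, with a mean of 1293 ± 131 (SD, n = 3), the change was -0.17 (interval -0.57 to 0.22, limma adjusted p = 0.999). The F test of any time gave an adjusted p of 0.0169, in a test that called 5.21% of all genes.

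The tested EGFR probe sets differed in their order over time. Means of 201984_s_at and 211551_at were higher at 24 h than at 8 h. Levels on 201983_s_at, which stood for the gene, ran in the order of exposure, highest with vehicle, then 8, 24 and 72 h. No neighbours in that order differed past the test. The change from 8 to 24 h was -0.61 (interval -1.01 to -0.21, limma adjusted p = 0.249), in a comparison that called 0.641% of genes. From 24 to 72 h it was -0.05 (interval -0.45 to 0.35, limma adjusted p = 0.953), where 0.153% were called. From 8 to 72 h it was -0.66 (limma adjusted p = 0.0846), where 2.52% were called. That comparison passed when fitted on its own 6 arrays (adjusted p = 0.0168) and without 24 h replicate 2 (adjusted p = 0.00603).

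The EGFR call at 24 h was the less stable. Without 24 h replicate 2, the lowest array of its group, the change was -0.50 (limma adjusted p = 0.0501), and leaving out array 1 or 2 of vehicle gave an adjusted p of 0.113 and 0.0820. It also ended with no filter (0.0569), with median centring (0.0562), with only the groups compared (0.0688) and with the mean of the gene's probe sets (-0.59, adjusted p = 0.155). At 72 h the call ended without vehicle replicate 1 (-0.76, adjusted p = 0.0609) and with the mean of probe sets (-0.65, adjusted p = 0.0696).

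**Figure D2:**
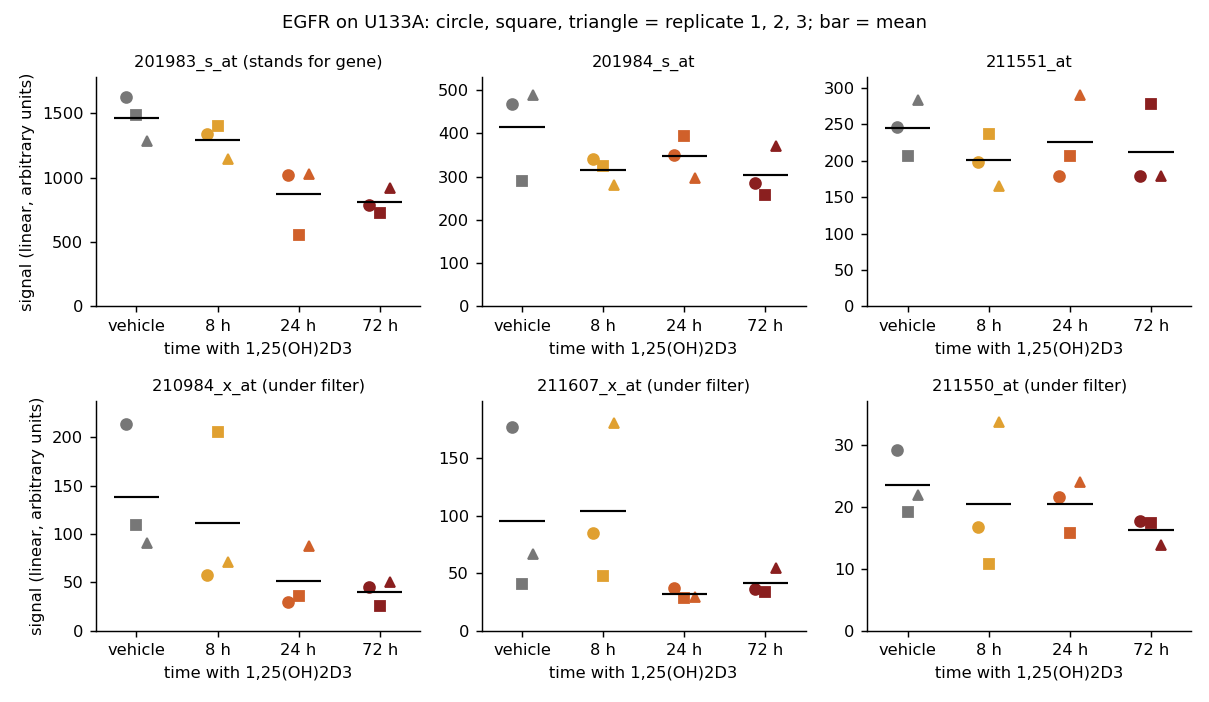
Signal in linear arbitrary units (vertical axes, from 0, each with its own range) of the 6 EGFR probe sets on U133A by time with 1,25(OH)2D3, with 1 point per array (circle, square and triangle for replicates 1, 2 and 3) and a bar at the group mean. Probe set 201983_s_at drops below all vehicle arrays at 24 and 72 h, whereas 201984_s_at and 211551_at overlap with vehicle at all times.

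The other EGFR probe sets did not give the same picture. Probe set 201984_s_at had means of 415, 315, 346 and 304 with vehicle and at 8, 24 and 72 h. Its changes of -0.35, -0.23 and -0.41 did not pass the test (limma adjusted p = 0.987, 0.731 and 0.288). Probe set 211551_at, at 245, 200.4, 225 and 212, had changes of -0.27, -0.13 and -0.21 (limma adjusted p = 0.999, 0.889 and 0.693).

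The 3 remaining EGFR probe sets lay under the filter. The dim probe set 210984_x_at had 214, 109 and 90.8 with vehicle, 29.8, 35.6 and 88.0 at 24 h, and 45.2, 25.9 and 50.5 at 72 h. Its groups did not overlap with vehicle at these times, with changes of -1.22 and -1.40 that did not pass when the filter was dropped (limma adjusted p = 0.347 and 0.166). Probe set 211607_x_at had 36.7, 28.4 and 29.4 at 24 h, against 177, 41.0 and 67.0 with vehicle. The suffix x marks probes that can also bind other transcripts, so these values are uncertain as EGFR. The last, 211550_at, had means of 23.4, 20.4, 20.5 and 16.3 with vehicle and at 8, 24 and 72 h.

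HBEGF, a ligand that binds EGFR and ERBB4 and is shed from the membrane, is encoded on chromosome 5 and has 3 U133A probe sets. Probe set 203821_at gave 36.3, 39.2 and 33.9 with vehicle in replicates 1 to 3. It gave 161, 57.9 and 173 at 8 h, 264, 57.0 and 434 at 24 h, and 266, 99.3 and 368 at 72 h. Every treated array lay above every vehicle array, and replicate 2 was the lowest array of each treated group.

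HBEGF 203821_at averaged 244 ± 136 at 72 h and 36.5 ± 2.62 with vehicle (SD, n = 3 each), and rose by 2.15 on the log2 scale (SE 0.57, interval 0.93 to 3.37, limma adjusted p = 0.0409). The change was 2.00 at 24 h (limma adjusted p = 0.0868) and 1.37 at 8 h (adjusted p = 0.761), neither of which passed. This probe set was tested only because its treated arrays lifted its mean past the filter, which stood at a signal of 116, so the call is no independent support. With the replicate number as a block, the 24 h change passed too (2.00, limma adjusted p = 0.0104), as it did without 24 h replicate 2 (2.76, adjusted p = 0.00499).

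The 72 h call of HBEGF 203821_at ended without vehicle replicate 1, 2 or 3 (limma adjusted p = 0.107, 0.0926 and 0.114) and without 8 h replicate 1 (0.0517). It also ended with no filter (0.0969) and with the larger pseudocount (1.51, adjusted p = 0.0576). Of the 12 fits that left out 1 array, only 7 tested this probe set, and the call held in 3. In the untested fits the probe set fell under the filter. The same happened with a pseudocount of 1 and with the 60th percentile filter.

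**Figure D3:**
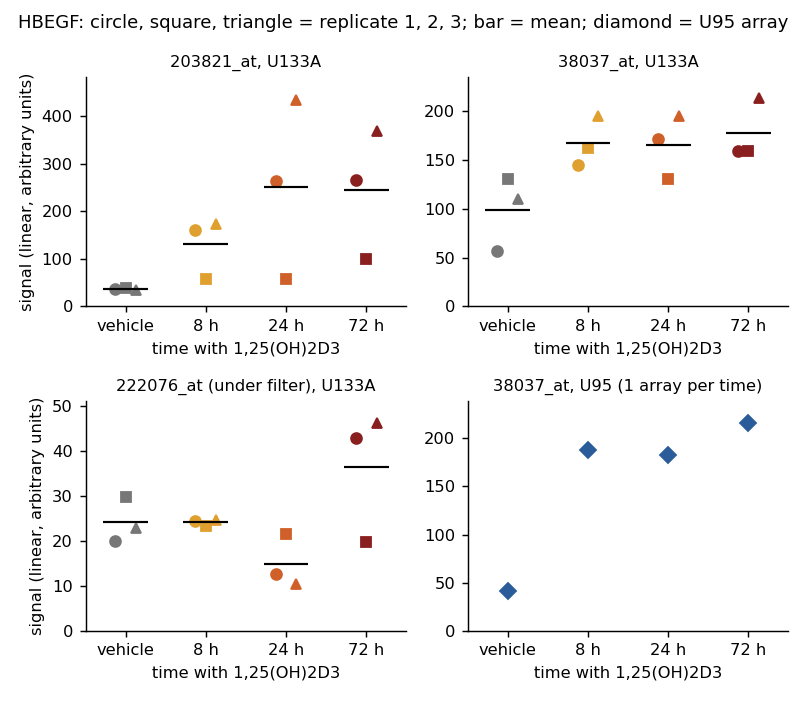
Signal in linear arbitrary units (vertical axes, from 0, each with its own range) of the 3 HBEGF probe sets on U133A by time with 1,25(OH)2D3 (circle, square and triangle for replicates 1, 2 and 3, bar at the group mean), and of 38037_at on the U95 arrays (diamonds, 1 array per time). All treated arrays of 203821_at and 38037_at lie above all vehicle arrays of the same type, with replicate 2 lowest among the treated arrays of 203821_at.

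Probe set 38037_at of HBEGF, which is on both array types, had 57.2, 130.2 and 110.0 with vehicle on U133A. It had 144, 163 and 195 at 8 h, 171, 131 and 195 at 24 h, and 159, 159 and 214 at 72 h. The groups did not overlap at any time, although 24 h replicate 2 exceeded the highest vehicle array by less than 1 unit. The changes of 0.72, 0.70 and 0.80 did not pass the test (limma adjusted p = 0.559, 0.247 and 0.109). The vehicle mean of 38037_at, 99.1, lay under the filter at a signal of 116. This probe set too was thus tested only because its treated arrays were high, so its test is no independent support. Probe set 222076_at, under the filter, had means of 24.2, 24.1, 14.9 and 36.3 with vehicle and at 8, 24 and 72 h, with no common direction.

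The remaining receptors, ERBB2, ERBB3 and ERBB4, did not pass the test at any time. ERBB2, the partner without a ligand of its own, had 519, 706 and 560.4 with vehicle, 429, 808 and 615 at 8 h, 539.8, 599 and 590.2 at 24 h, and 586, 562 and 536 at 72 h on 216836_s_at. Its groups overlapped, and the changes were 0.02, -0.03 and -0.07. The 72 h interval of -0.45 to 0.31 leaves room for a change of that size (limma adjusted p = 0.881). The signs of these small ERBB2 changes turned under other settings. Its second probe set, 210930_s_at, was dim, between 8.41 and 88.7 over all arrays.

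ERBB3, a receptor for neuregulins with an impaired kinase, had means of 646 ± 52.6, 592 ± 82.6, 683 ± 53.9 and 598 ± 15.6 with vehicle and at 8, 24 and 72 h on 202454_s_at (SD, n = 3 each). The changes of -0.13, 0.08 and -0.11 did not pass (lowest limma adjusted p = 0.696). Its 72 h interval was -0.36 to 0.15, narrower than that of any other member tested by gene. The other ERBB3 probe set, 215638_at, gave 123, 117 and 127 at 8 h and 143, 165 and 119 at 24 h, against 104, 114 and 117 with vehicle. At 72 h it gave 86.4, 181 and 189.6, so it lay above vehicle without overlap at 8 and 24 h only. Its changes of 0.12, 0.30 and 0.33 did not pass (lowest limma adjusted p = 0.577), and the 2 probe sets of ERBB3 differed in sign at 8 and 72 h. The vehicle mean of 215638_at, 112, lay under the filter at a signal of 116, so it was tested only through its treated arrays.

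ERBB4, a neuregulin receptor that also binds HBEGF, had 963, 1023 and 909 with vehicle, 773, 961 and 928 at 8 h, 880.2, 1149 and 827 at 24 h, and 556, 946 and 785 at 72 h on 214053_at. One 72 h array lay above the lowest vehicle array, and replicate 1 was the lowest at 8 and at 72 h. The 72 h change was -0.36 (interval -0.72 to -0.01), with an unadjusted p of 0.0471 that did not pass adjustment in limma (0.241). At 8 and 24 h the changes were -0.12 and -0.03. The second ERBB4 probe set, 206794_at, was under the filter, with means of 102, 95.6, 91.5 and 102 with vehicle and at 8, 24 and 72 h.

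Of the other ligands, TGFA, a ligand of EGFR, had 161, 198 and 289 with vehicle, 188, 196 and 365 at 8 h, 163, 228 and 199 at 24 h, and 129, 207 and 233 at 72 h on 205016_at. Replicate 1 was the lowest array in every group, and the groups overlapped. The changes of 0.17, -0.10 and -0.17 had intervals that reached 0.76 at 8 h and -0.76 at 72 h (lowest limma adjusted p = 0.801). The second tested TGFA probe set, 211258_s_at, had changes of -0.51, 0.22 and -0.46, which did not pass either (lowest limma adjusted p = 0.406). The third, 205015_s_at, stayed between 6.95 and 13.8 over all arrays. EREG, a ligand of EGFR and ERBB4, was near the bottom of the scale on 205767_at, with means of 25.6, 20.3, 9.77 and 13.2 with vehicle and at 8, 24 and 72 h, and was not tested.

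Separation of the groups was read against its frequency on the array. At 8 h 3 of the 19 member probe sets had all 3 treated values above vehicle (5.5% of all probe sets did) and 0 had all below (5.99%). At 24 h 3 lay above (6.83%) and 4 below (9.51%). At 72 h 2 lay above (7.89%) and 3 below (9.77%). The 2 above at 72 h were both of HBEGF and the 3 below were all of EGFR. Probe sets of 1 gene share their source, so these are not separate observations. Among those below vehicle, only 1 of the 4 at 24 h and 1 of the 3 at 72 h passed the filter. In each case it was the EGFR probe set that stood for the gene. The remaining tested EGFR probe sets overlapped with vehicle at both times. The 3 above at 24 h and the 2 above at 72 h all passed, but only through their treated arrays.

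The U95 arrays, with 1 sample per condition and no replicate check, gave signals for 7 members. EGFR 1537_at read 719, 267, 259 and 106 with vehicle and at 8, 24 and 72 h, which are log2 ratios of -1.38, -1.43 and -2.61. On the single 8 h array, 1537_at was thus already low, which the U133A set did not show. The second U95 probe set of EGFR, 37327_at, lay under the filter and read 52.4, 116, 83.6 and 25.9. It was thus higher than with vehicle at 8 and 24 h and lower at 72 h only.

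HBEGF 38037_at read 41.5, 188, 182 and 216 on U95 with vehicle and at 8, 24 and 72 h, log2 ratios of 1.87, 1.83 and 2.05. The 3 ERBB2 probe sets spread on both sides of 0, with 72 h ratios of 0.79, -0.20 and -0.49. ERBB3 1742_at read 442, 353, 373 and 201, while the other 4 ERBB3 probe sets above the filter had 72 h ratios between -0.46 and -0.25. ERBB4 37273_at read 999, 795, 738 and 777. TGFA and EREG lay under the filter, TGFA with 82.3, 70.9, 52.7 and 38.1.

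Of the 11 member probe sets above the U95 filter, 1 had a log2 ratio of at least 1 at each time, HBEGF, where 1.31%, 1.84% and 2.18% of all 7535 did. HBEGF, at 41.5 with vehicle, passed that filter, which stood at a signal of 105, only through its treated arrays, so nothing is read from that count. At most -1 was found for 1 at 8 h, 1 at 24 h and 2 at 72 h, against 0.956%, 1.69% and 2.85% of all. Those were EGFR at each time and ERBB3 1742_at at 72 h. At 72 h 9 of the 11 ratios were negative, as were 59.2% over all probe sets.

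**Figure D4:**
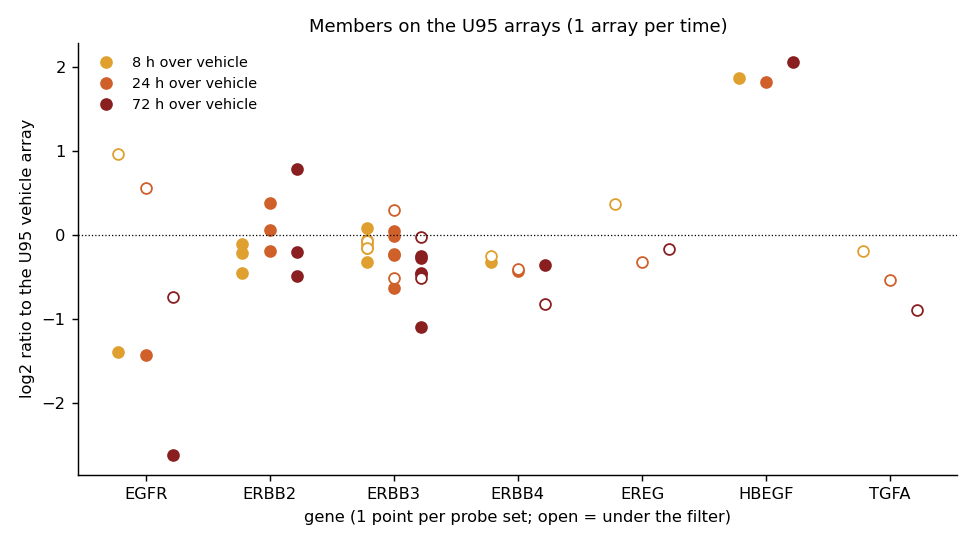
Log2 ratio to the U95 vehicle array (vertical axis) for each U95 probe set of 7 members (horizontal axis) at 8, 24 and 72 h, 1 array per time, with open points for probe sets under the filter. EGFR 1537_at reaches -2.61 at 72 h, HBEGF lies between 1.83 and 2.05, and the other members' filled points lie between -1.09 and 0.79.

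The 3 genes whose log2 values were most alike to those of EGFR over the 12 U133A arrays, among all genes tested, were TAF5 (Pearson r = 0.961), CERS6 (0.933) and FNDC3B (0.932). The arrays share groups and scaling, so these values are a description. The 72 h changes of TAF5, CERS6 and FNDC3B were -0.26, -0.34 and -0.33, smaller than that of EGFR, and none passed the test (limma adjusted p = 0.220, 0.121 and 0.184).

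The wider pathway was read from 6 lists with 100 genes, of which 66 were tested. At 8 h 1 was called, higher (1.52% of the 66). At 24 h 6 were called, 3 higher and 3 lower (9.09%), and at 72 h 10, 5 in each direction (15.2%). Over all genes the shares were 0.711% higher at 8 h, 2.45% higher and 1.62% lower at 24 h, and 3.86% higher and 2.98% lower at 72 h. The lists' median changes of -0.01, -0.02 and 0.02 lay near those of all genes. The lists were chosen with earlier results of these data known. The shares here and the counts of each list below are thus a description, and no excess over all genes is read from them.

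Early response genes, which growth factor signalling induces, held all the higher calls of the 6 lists, with 1, 3 and 5 of 13 tested genes higher at 8, 24 and 72 h and 0, 1 and 1 lower. JUNB, an AP-1 subunit, averaged 862 ± 50.9 at 8 h and 850.4 ± 90.3 at 72 h, against 520 ± 34.1 with vehicle (SD, n = 3 each). It rose by 0.71 at 8 h and 0.69 at 72 h (limma adjusted p = 0.0127 and 0.00378). PLAUR, the urokinase receptor, rose by 0.65 at 24 h and 0.75 at 72 h (limma adjusted p = 0.00191 and 3.77e-04), with 783 ± 47.3 at 72 h and 458 ± 23.4 with vehicle (SD, n = 3 each). VEGFA rose by 0.67 at 72 h (limma adjusted p = 0.00225). ATF3 and KLF10, transcription factors, rose by 0.76 and 0.39 at 72 h (limma adjusted p = 0.0339 and 0.0231).

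EGR1, a zinc finger factor of the same early class, fell to 229 ± 34.9 at 72 h, against 405 ± 59.3 with vehicle (SD, n = 3 each), a change of -0.78 (limma adjusted p = 0.0267). At 24 h its change was -0.77 (adjusted p = 0.0432). Its other probe set, 201693_s_at, had a change of 0.08 at 72 h, and the 72 h change was -0.35 with the mean of both. Leaving out array 1 or 3 of vehicle or of 72 h ended the EGR1 call at 72 h (limma adjusted p up to 0.118). At 24 h the same held for vehicle arrays 1 and 3, each 8 h array, 24 h arrays 1 and 2 and 72 h array 3 (up to 0.184).

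The early response calls differed in how far they depended on 1 array. Those of PLAUR at both times, and of JUNB and VEGFA at 72 h, held without any single array, although averaging the probe sets of PLAUR gave a 24 h change of 0.30 that did not pass. The 24 h calls of JUNB (0.51, limma adjusted p = 0.0431) and VEGFA (0.58, adjusted p = 0.00936) did not. The JUNB call was lost on leaving out each vehicle array, each 8 h array, 24 h array 1 or 3, or 72 h array 2 in turn (up to 0.174). The VEGFA call was lost on leaving out array 3 of vehicle or array 1 of 24 h (up to 0.0529). The JUNB call at 8 h needed vehicle arrays 1 and 3 and 8 h arrays 1 and 2 (up to 0.0855 when 1 was absent). In the same sense ATF3 needed vehicle arrays 2 and 3 and 72 h array 3 (up to 0.150), and KLF10 needed arrays 2 and 3 of both groups (up to 0.103).

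Among negative regulators, 1 of 14 tested genes was called at 24 and at 72 h and 0 at 8 h, where 2 had an unadjusted p under 0.05. CBLB, a ubiquitin ligase that marks activated receptors for degradation, fell to 842 ± 108 at 24 h and 965 ± 84.7 at 72 h, against 1480.1 ± 205 with vehicle (SD, n = 3 each). Its changes were -0.80 and -0.60 (limma adjusted p = 0.00185 and 0.0110). The 72 h call ended without vehicle replicate 2 (-0.49, adjusted p = 0.0666). The other CBLB probe set, 208348_s_at, lay under the filter and had changes of 0.07 at 24 h and 0.33 at 72 h. With the mean of both probe sets, the changes were -0.36 and -0.14 and did not pass.

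Of 18 adaptor and cascade genes tested, 0, 1 and 2 were called at 8, 24 and 72 h, all lower. 2 of the 18 had an unadjusted p under 0.05 at 8 h in limma. PIK3R3, a regulatory subunit of PI3 kinase, fell by 0.59 at 24 h and 0.69 at 72 h on the log2 scale (limma adjusted p = 0.0322 and 0.00782). The 24 h call of PIK3R3 was lost on leaving out array 1 or 2 of vehicle, or array 2 or 3 of 24 h (up to 0.153). Both calls ended with the mean of its probe sets, where the changes were -0.68 and -0.64. PTPN11, the phosphatase SHP2 that carries receptor signals to RAS, fell by 0.32 at 72 h (limma adjusted p = 0.0274). Leaving out each vehicle array, or array 1 or 2 of 72 h, ended that call (up to 0.0979). All 5 of its probe sets had negative changes at 72 h.

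Of 10 genes for ligand release and receptor chaperones, 0, 0 and 1 were called at the 3 times. ADAM10, a metalloprotease that releases EGF family ligands, averaged 2910 ± 183 at 72 h and 4180.0 ± 120 with vehicle (SD, n = 3 each). It fell by 0.52 (limma adjusted p = 0.0110), and its other probe sets had changes of -0.48 and -0.59. The call held without any single array. At 8 and 24 h 0 genes of this list had an unadjusted p under 0.05 in limma either.

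Receptor endocytosis had 0 of 9 genes called by limma at any time, with 0, 1 and 0 genes at an unadjusted p under 0.05. The other EGF family ligands had 0 of 2 called by limma, with 0, 0 and 1 at an unadjusted p under 0.05. BTC, the ligand betacellulin, averaged 158 ± 3.14 at 72 h and 236 ± 46.3 with vehicle (SD, n = 3 each), a change of -0.51 (limma adjusted p = 0.141). NRG1, a neuregulin that binds ERBB3 and ERBB4, averaged 623 ± 245 and 422 ± 145 in the same groups, a change of 0.53 (limma adjusted p = 0.406).

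**Figure D5:**
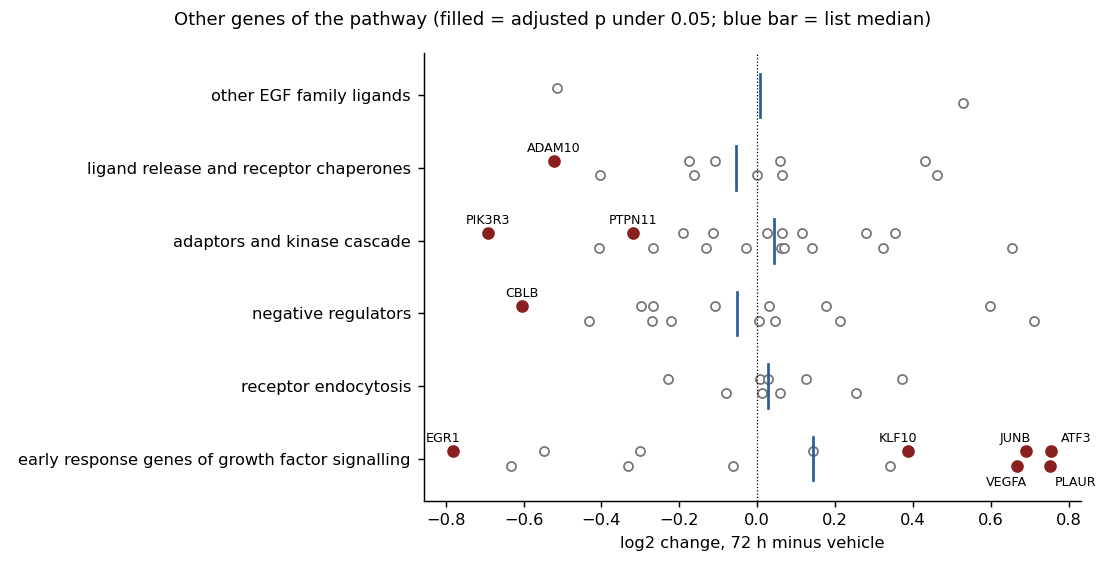
Log2 change at 72 h minus vehicle on U133A (horizontal axis) for each tested gene of the 6 pathway lists (rows), with filled red points and names for adjusted p under 0.05 and a blue bar at the list median. The 5 genes called higher are all early response genes, and the 5 called lower lie in 4 lists, from -0.78 for EGR1 to -0.32 for PTPN11.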

How the data were processed

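Messenger RNA was measured on 12 U133A and 4 U95 arrays. The deposited values are a linear signal intensity per probe set, made with MAS5 (no version given) per the submitters' processing notes. The 2% trimmed mean averaged 500.2 over the arrays of each type, and the authors' values were used as deposited. All arrays were matched by label (0 unmatched columns), and detection calls were not used here.

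Of 22283 U133A probe sets, 19071 had exactly 1 gene in the platform annotation. Values became log2(value + 15.833), the 10th percentile of U133A values (13.87 for U95). Each of 11963 genes was represented by its probe set of highest mean, and genes under the 40th percentile of the mean were left out, leaving 7178. Probe sets were fitted likewise (13329 tested, 68 controls excluded). limma 3.58.1 (R 4.3.3, tables read by data.table version 1.17.8) fitted 1 term per group to all 12 arrays (eBayes with trend, 8 residual degrees of freedom), two-sided, with Benjamini-Hochberg adjustment over all features tested and a threshold of 0.05. The fit was tested on simulated data. The number of arrays limits the precision.

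Replicate numbers were left out of the fit. Arrays with the same number deviated together, with correlations over 0.1 for each of the 3 numbers, between 8 and 24 h (0.108 to 0.157) and between 24 and 72 h (0.103 to 0.187). For the remaining comparisons 1 or 2 of the 3 correlations exceeded 0.1. No label says that the numbers mark a shared batch.

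The members and lists were chosen with earlier results of these data known. Named genes are all members, list genes past the threshold (at most 5 a list and time, lowest p first), the 3 genes most alike to each member past the F test, and CYP24A1. BTC and NRG1 were added after their values were seen, as the tested genes of their list. Alternatives were other pseudocounts, filters, normalizations, probe set rules and sample sets, a replicate block, and leaving out each array.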

Additional observations from a re-analysis of the deposited data

How the results depend on the processing

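Values on the log2 scale stayed on their side of the threshold except as given in the report and here. With the replicate block, calls numbered 84 at 8 h (55 without it), 90 from 8 to 24 h (46), 25 from 24 to 72 h (11) and 292 from 8 to 72 h (181), and among members the block changed only the HBEGF 203821_at call at 24 h. From 8 to 24 h, no filter gave 22 calls and median centring 28. From 24 to 72 h, no filter gave 4, quantile normalization 6, and median centring, the mean of probe sets and only the groups compared 5 each. On leaving out each array, gene calls ranged from 38 to 60 at 8 h, 187 to 314 at 24 h, 322 to 532 at 72 h, 9 to 48 from 8 to 24 h, 4 to 10 from 24 to 72 h, 103 to 205 from 8 to 72 h, and 260 to 402 for the F test. Probe set calls ranged from 41 to 73, 236 to 416 and 421 to 756 at the 3 times. U95 ratios at 8, 24 and 72 h with a pseudocount of 1 were -1.43, -1.47 and -2.75 for EGFR 1537_at and 2.16, 2.11 and 2.35 for HBEGF. With 4 times the 10th percentile they were -1.26, -1.30 and -2.26, and 1.33, 1.29 and 1.49.

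Signs turned only for small changes that did not pass the test. ERBB2 turned at 24 h with median centring (0.00054) and with the mean of probe sets at 8 h (-0.011) and 72 h (0.27). ERBB3 turned at 72 h with the mean of probe sets (0.11) and ERBB4 at 24 h with centring (0.0031). On leaving out each array, ERBB2 ranged from -0.19 to 0.25, -0.12 to 0.092 and -0.16 to 0.055 at 8, 24 and 72 h, TGFA from -0.12 to 0.39, -0.28 to 0.12 and -0.35 to 0.061, and ERBB4 at 24 h from -0.17 to 0.061. EGFR 211551_at at 24 h ranged from -0.32 to 0.010 and EGFR from 24 to 72 h from -0.34 to 0.10. As a probe set, EGFR 201983_s_at kept its call at 24 and 72 h in 8 of 12 such fits each (limma adjusted p up to 0.145 and 0.0773). HBEGF 203821_at fell under the filter, and so had no test, with a pseudocount of 1, with the 60th percentile filter and in all but 7 of the 12 fits that left out 1 array. The F test of EGFR did not pass without vehicle replicate 1 or 2 (limma adjusted p = 0.0637 and 0.0549) or with the mean of probe sets. Among list genes, calls also ended with no filter (ATF3 at 72 h, EGR1 at 24 and 72 h, JUNB and PIK3R3 at 24 h), with median centring (EGR1 and PIK3R3 at 24 h, PTPN11 at 72 h), with only the groups compared (EGR1, JUNB and PIK3R3 at 24 h, PTPN11 at 72 h) and with the mean of probe sets (CBLB and PIK3R3 at both times, EGR1 at 72 h, PLAUR and VEGFA at 24 h). The cause of these differences was not tested. The alternatives for probe sets with other pseudocounts, the 60th percentile filter, centring, fewer groups and left-out arrays were chosen after seeing the data.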
